A study of Saccharomyces cerevisiae with 24 samples.

Results

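The genes of chromosome VI of budding yeast were followed through RNA-seq libraries of 8 strains that carry different actins. They were chosen by systematic name: genes with names beginning YFL or YFR and a mean of at least 10 normalised counts over the libraries of a table, without ACT1, TUB2 and HSP12. This gave 119 of 5843 rows of the haploid table and 111 of 5730 rows of the diploid table. No other row of the chromosome in these tables fell below the minimum, and 8 members were listed in the haploid table only. Genes of the chromosome without a row are not covered. The chromosome was picked because its genes were raised in libraries of the strains N2, Ca and N2/Ca, so those values are described here with no test. Sc[Sp], Sc[At] and Sc[Ca] had no part in that choice and were tested. The lists of genes by role used below were chosen with earlier results of these data known, so counts within them are description only.

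The haploid strains were N2, Ca, Sc[Sp], Sc[At] and Sc[Ca], set against the wild type ScNI. The diploid strain N2/Ca was set against the wild type Sc/Sc. Each strain had 3 libraries, made from log-phase cells in rich glucose medium at 25 °C, and all strains shared that treatment. The labels name the actins only by these strain names and give neither promoters nor the number of clones. They do not say whether replicates were separate cultures, so that p-values measure the spread between these libraries. That spread is not only technical, as replicate 2 of every haploid strain differed from replicates 1 and 3 in the mating gene STE2, described below. In the tested strains and ScNI, the spread between replicates 1 and 3 may be technical.

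A chromosome present in an extra copy usually carries its genes' messages up with it, roughly in step with gene dosage. In yeast, cells with such a chromosome are called aneuploid, and most studies find that messages follow the copy number more closely than proteins do, since surplus subunits of protein complexes are often degraded. Chromosome VI is known as a poorly tolerated extra chromosome, because it carries ACT1 and the beta-tubulin gene TUB2, and an excess of beta-tubulin is toxic. A doubling of a message is a log2 value of 1, and a gene on 3 chromosome copies in place of 2 stands at 0.58 if its message keeps step. DNA was not sequenced in these libraries, so copy number itself is not known. In bulk RNA, a partial rise in every cell and a full rise in a share of the cells cannot be told apart.

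Chromosome VI is 270161 bp long in R64, with its centromere at chrVI:148603-148627, and 61 members lie on the left arm and 58 on the right. The mean level of the members ran between 10.4 and 29480 normalised counts, and 18 members were under 100. The haploid libraries held between 10228523 and 15403081 reads and the diploid libraries between 12128284 and 15134814. Values are log2 of a library's normalised count plus 1 over the mean of the same-ploidy wild type plus 1, which understates the change of low genes.

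Members stood above the wild type in every N2 library, in a pair of Ca libraries and in a single N2/Ca library. The median member was at 0.50, 0.91 and 0.88 in N2 replicates 1, 2 and 3. It was at 0.88, 0.85 and 0.06 in the Ca replicates, and at 0.43, −0.01 and −0.02 in the N2/Ca replicates. The 3 N2 libraries were all raised, N2 replicate 1 less than the others, while Ca replicate 3 and N2/Ca replicates 2 and 3 lay close to their wild type. As strain means, N2 was at 0.76 ± 0.23, Ca at 0.59 ± 0.47 and N2/Ca at 0.13 ± 0.26 (SD, n = 3 each), so that the spread within Ca and N2/Ca was about as large as the mean or larger. In Sc[Sp] the medians were 0.07, 0.05 and −0.01, in Sc[At] 0.07, 0.10 and −0.01 and in Sc[Ca] 0.04, 0.05 and 0.02, all near 0.

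**Figure D1:**
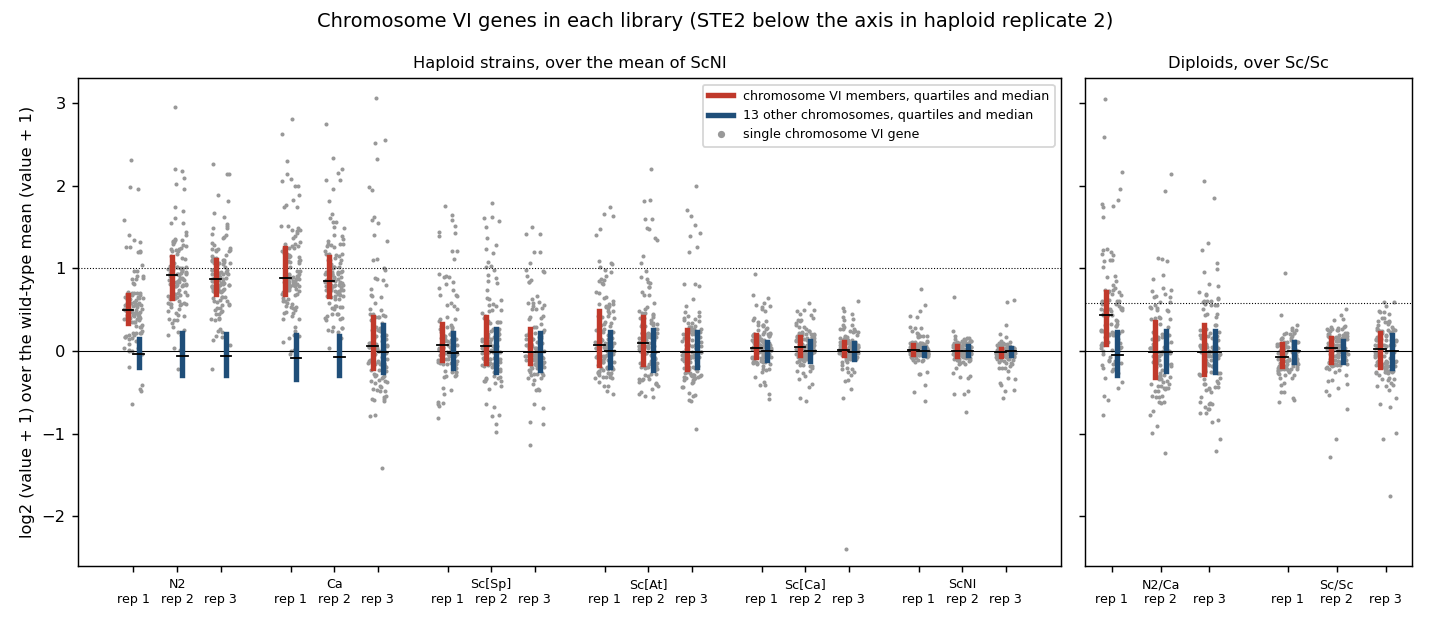
Each grey point is a chromosome VI gene in a library, on a log2 scale over the same-ploidy wild-type mean; red bars are the quartiles of the members and blue bars those of 13 other chromosomes (VI, XI and XIII left out), with black ticks at the medians. Dotted lines mark 1 in the haploid and 0.58 in the diploid panel; red bars stand clear of blue bars in all N2 libraries and in Ca replicates 1 and 2, and overlap them in N2/Ca replicate 1.

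Nearly the whole chromosome was raised in N2. Above 0 were 112, 117 and 118 of 119 members in N2 replicates 1, 2 and 3, and 118, 118 and 67 in Ca replicates 1, 2 and 3. In N2/Ca it was 89, 53 and 53 of 111. In all 3 N2 libraries 111 members were above 0, and only CSS2 and OTU1 lay within 0.25 of 0 in all 3. The members were spread about their median about as widely as other genes were about theirs. The interquartile range of the members was 0.34, 0.49 and 0.42 in the N2 libraries, against 0.34, 0.51 and 0.50 for the genes of 13 other chromosomes. In Ca it was 0.55, 0.47 and 0.62, against 0.52, 0.48 and 0.57. In N2/Ca it was wider on chromosome VI, at 0.62, 0.67 and 0.59, against 0.53, 0.49 and 0.49.

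Differences between libraries of the same strain show the chromosome without the wild type. In Ca, replicate 1 stood above replicate 3 by a median of 0.80 and replicate 2 above replicate 3 by 0.78. In N2/Ca, replicate 1 stood above replicate 2 by 0.45 and above replicate 3 by 0.44, with an interquartile range of 0.23 for the first of these pairs, close to the 0.23 of 13 other chromosomes. The median of N2 replicate 1 minus replicate 2 was −0.41, and that of replicate 1 minus replicate 3 was −0.39. N2 replicates 2 and 3 differed by a median of 0.03, and 106 of 119 members were within 0.25 of it.

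To ask which genes kept step, each member was set against the median member of its own library. A member was called following where it lay within 0.25 of that median in all 3 N2 libraries, short where it lay more than 0.25 below it in all 3, exceeding where it lay more than 0.25 above it in all 3, and mixed otherwise. By this rule 42 members (35.3%) were following, 15 (12.6%) short, 11 (9.24%) exceeding and 51 (42.9%) mixed. The same rule, with each gene against the median of its own chromosome, gave 34.9% following, 6.84% short, 9.5% exceeding and 48.8% mixed over all 5803 genes with a chromosome. On chromosome XIII, which was also raised in N2, it gave 36.8% following, 6.41% short, 7.69% exceeding and 49.1% mixed of 468 genes. The shares of following and exceeding members of chromosome VI were thus near the background of all genes. Their share of short members was larger than that background and than the share on chromosome XIII. Chromosome VI was chosen on these same libraries, so no test of that difference is given. The number of exceeding members depended on N2 replicate 1, in which the chromosome median was lowest: without it 24 members were exceeding, and with members of a mean of at least 100 only, 5 were. The last member inside the short margin was VTC2, with a nearest value of −0.25, and RPN11 lay just outside it at −0.21. On the other side YFL067W was just inside at 0.31 and IRC7 just outside at 0.20.

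Of 13 membrane traffic genes 10 were following, beside 34.9% of all genes, 1 was short and 2 were mixed; these are N2 values and no test is given. YPT1, the Rab GTPase of transport out of the endoplasmic reticulum and the right-hand neighbour of ACT1, was at 0.50, 0.91 and 0.91 in N2 and 0.79, 0.86 and −0.00 in Ca. SEC4, the Rab GTPase of secretory vesicles, was at 0.47, 0.79 and 0.76 in N2 and 0.69, 0.80 and −0.03 in Ca. SEC53, the phosphomannomutase needed for glycosylation, was at 0.50, 1.12 and 1.11 in N2 and 1.17, 1.15 and −0.19 in Ca. Each of these 3 genes was raised in the libraries in which the chromosome was raised and lay at or below 0 in Ca replicate 3. Among 9 transcription and chromatin genes 6 were following, beside the same 34.9%, among them RSC8, a subunit of the RSC chromatin remodeller, at 0.30, 0.93 and 0.94 in N2 and 0.87, 0.96 and −0.49 in Ca. HAC1, the transcription factor of the unfolded protein response, followed in N2 at 0.36, 0.81 and 0.96 but was at 0.81, 0.68 and 0.68 in Ca, where replicate 3 was as high as replicate 2.

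Short were 1 of 4 proteasome genes, 2 of 8 ribosome and translation genes and 2 of 9 cell cycle genes. Over all members it was 12.6%, and over all genes 6.84%. The rest of these lists were following or mixed, and 1 ribosome and translation gene was exceeding. CSS2 (YFR020W, chrVI:192737-193435, plus strand) was the lowest. It had 413, 404 and 404 normalised counts in the N2 libraries, against 474, 472 and 468 in ScNI, which is −0.19, −0.22 and −0.22 on the log2 scale. All 3 N2 values lay below all 3 ScNI values, on a chromosome where nearly every other gene was higher. In the diploids CSS2 was likewise below the wild type in every library, with 289, 296 and 275 in N2/Ca, against 319, 323 and 349 in Sc/Sc. Within Ca the libraries differed, with 510.0, 482 and 337 in the 3 Ca libraries, replicate 3 being the lowest.

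RPL2A, which encodes a protein of the large ribosomal subunit and has a near-identical copy elsewhere in the genome (RPL2B), was short in N2 too. It stood at 29269.7, 38769 and 40144 normalised counts in N2, against 28953, 28355 and 28665 in ScNI. The log2 values were 0.03, 0.44 and 0.49 in N2 and 0.46, 0.58 and −0.60 in Ca. Counts of such a pair depend on how shared reads were assigned, and no source used here says how, so these values are uncertain. GCN20, a regulator of the kinase Gcn2 in amino acid starvation, was at −0.03, 0.58 and 0.52 in N2 and 0.47, 0.54 and −0.55 in Ca. Both genes were nearest to ScNI in N2 replicate 1 and lay below ScNI in Ca replicate 3.

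Other short members stood between 0 and the chromosome median in N2. OTU1, a deubiquitylating enzyme that works with Cdc48, was at 0.02, 0.19 and 0.14 in N2 and 0.39, 0.28 and −0.55 in Ca. LSB3, which binds the actin nucleation factor Las17 and acts at actin patches, was at 0.17, 0.42 and 0.39 in N2 and 0.42, 0.38 and −0.58 in Ca. SAD1, a splicing factor, was at 0.08, 0.48 and 0.48 in N2 and 0.16, 0.28 and −0.43 in Ca. These 3 were below the median member in each N2 and Ca library, and below ScNI in Ca replicate 3. FAR7, of the pheromone arrest pathway, was at 0.12, 0.30 and 0.07 in N2 and 0.01, 0.23 and −0.37 in Ca. CNN1, a kinetochore protein, CAK1, the kinase that activates the cyclin-dependent kinase, BNA6 of NAD synthesis, VTC2 of vacuolar polyphosphate synthesis, RPN12 and FMP32 were the closest to the margin, between −0.41 and −0.28 from the chromosome median on average.

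A neighbouring pair of short members behaved differently in Ca. DCV1 (YFR012W) was at −0.49, 0.55 and 0.39 in N2 but at 1.74, 1.81 and 1.40 in Ca, and YFR012W-A, the next gene, was at −0.65, 0.03 and 0.22 in N2 but at 1.77, 2.07 and 1.33 in Ca. Both were low genes, with means of 48.5 and 14.7 normalised counts. Both were high in Ca replicate 3 too, where the chromosome median lay near the wild type. Of the 15 short members, 11 were also more than 0.25 below the median in Ca replicate 1, 8 in replicate 2 and 9 in replicate 3. In each Ca library 2 short members were more than 0.25 above it. Among the 42 following members 4, 4 and 7 were that far below it in Ca replicates 1, 2 and 3. Of the 51 mixed members it was 11, 13 and 13, and of the 11 exceeding members 0, 0 and 1. These Ca values share the ScNI libraries with those of N2. The short members lay mainly on the right arm, 11 of 15, against 47 of the other 104 members.

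**Figure D2:**
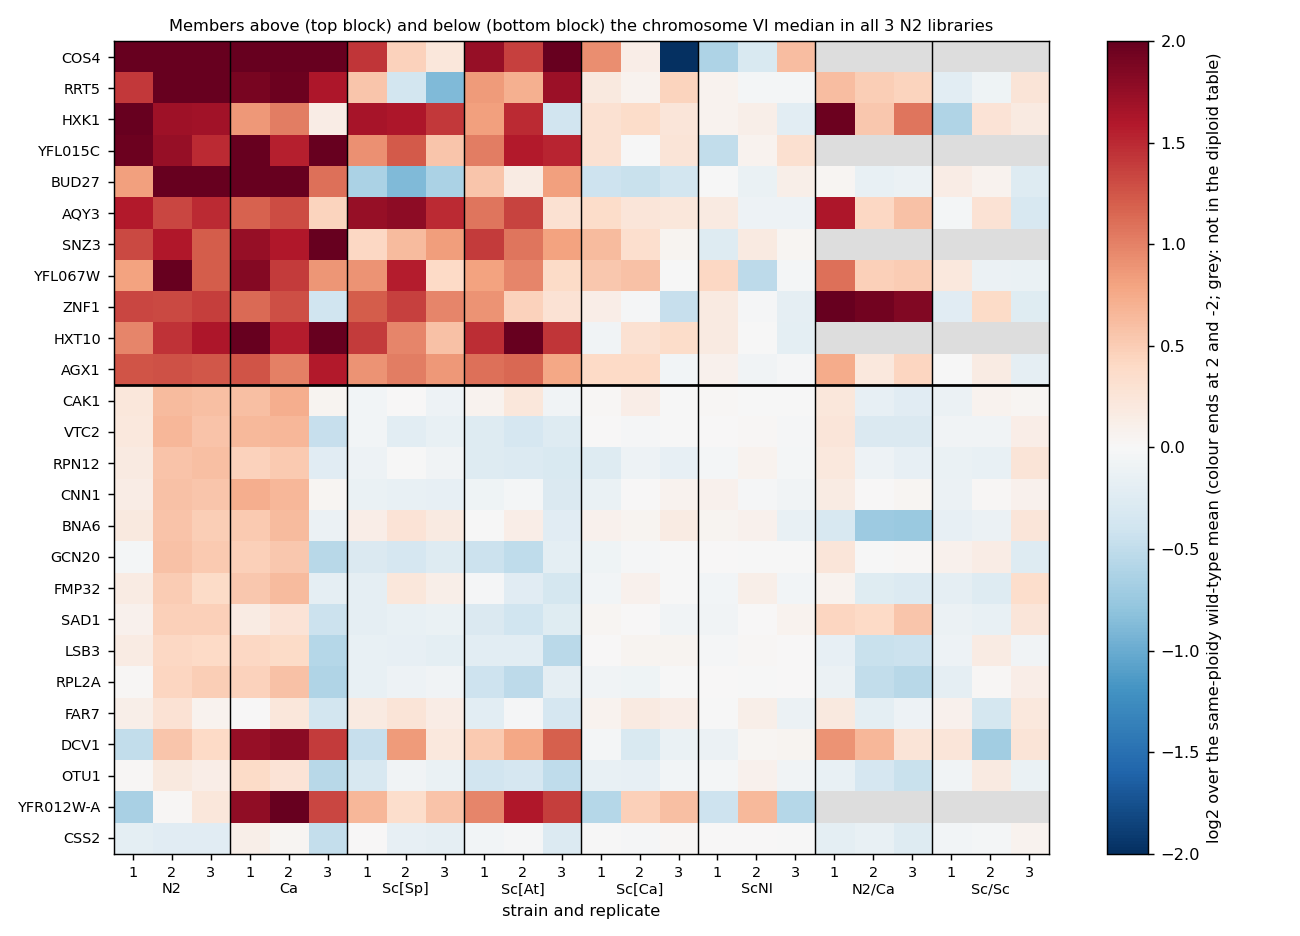
Colour shows the log2 value over the same-ploidy wild-type mean for the 11 exceeding members (top block) and the 15 short members (bottom block) in each of the 24 libraries, by strain and replicate. The short members are pale in N2 replicate 1, and most exceeding members are also red in Sc[Sp], Sc[At] and Ca replicate 3, BUD27 in Sc[Sp] being blue.

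The exceeding members were set against the strains in which the chromosome median was near 0. Their median was 1.34, 1.70 and 1.49 in N2 and 1.83, 1.56 and 1.58 in Ca. It was 0.91, 1.03 and 0.59 in Sc[Sp], 1.02, 1.15 and 0.81 in Sc[At] and 0.31, 0.25 and 0.06 in Sc[Ca]. Their median was thus above the chromosome median in these strains too, by little in Sc[Ca], and all of these values share the ScNI libraries that defined the class. By contrast the short members had medians of 0.12, 0.50 and 0.48 in N2 and 0.47, 0.58 and −0.37 in Ca.

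HXK1 (YFR053C, chrVI:253592-255049, minus strand), a hexokinase of glucose phosphorylation that is known to be repressed by glucose, had 70726, 46177 and 45468 normalised counts in N2. It had 26002, 28889 and 15816 in Ca, against 14887, 15447 and 12329 in ScNI. N2 replicate 1, with the lowest chromosome median among the N2 libraries, had the highest HXK1 value of the 3. In the diploids HXK1 was at 12364, 4589 and 6667 in N2/Ca, against 2099, 3816 and 3602 in Sc/Sc, with no overlap between the groups.

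Several exceeding members were high in all 3 Ca libraries. AGX1, alanine:glyoxylate aminotransferase, was at 1.26, 1.27 and 1.24 in N2 and 1.25, 1.01 and 1.58 in Ca, with its highest value in Ca replicate 3. HXT10, a hexose transporter, was at 0.97, 1.44 and 1.62 in N2 and 2.08, 1.57 and 2.52 in Ca. SNZ3, of a vitamin B6 synthesis family, was at 1.31, 1.60 and 1.21 in N2 and 1.74, 1.61 and 1.99 in Ca. All 3 were highest in Ca replicate 3, where the chromosome median was near 0. COS4, of a subtelomeric family of membrane proteins, had only 19.9, 39.9 and 24.3 normalised counts in N2, against 2.46, 3.29 and 7.1 in ScNI. SNZ3 and COS4 have near-identical relatives, so their counts are uncertain. Of the 11 exceeding members 6 had a mean under 100, and RRT5, YFL015C and YFL067W were among these low genes.

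BUD27, a prefoldin-like protein of RNA polymerase assembly, was far above the chromosome median in N2 replicates 2 and 3 and in the Ca libraries. It had 933, 2435 and 2323 normalised counts in N2 and 2321, 2342 and 1136 in Ca, against 523, 482 and 573 in ScNI. N2 replicate 1 and Ca replicate 3 were the lowest of their strains, yet both were above all ScNI libraries. In the diploids BUD27 was at 849.6, 748 and 770.3 in N2/Ca, against 925, 873 and 695 in Sc/Sc, and the groups overlapped. IRC7, a cysteine beta-lyase near the right end, was mixed by the rule, but it too was at 0.70, 2.10 and 1.89 in N2 and 1.99, 2.07 and 0.02 in Ca. ZNF1, a transcription factor of respiratory growth, was at 1.34, 1.32 and 1.38 in N2 and 3.05, 1.93 and 1.86 in N2/Ca, where it was high in all 3 libraries.

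Of 9 genes of cell division, 2 were following (CDC4, SMC2), 2 short (CAK1, CNN1) and 5 mixed, which is near the 48.8% mixed over all genes. MOB2, the activator of the kinase Cbk1, was at 0.70, 1.54 and 1.54 in N2 and 1.46, 1.33 and 0.08 in Ca. CDC14, the mitotic exit phosphatase, was at 0.39, 1.28 and 1.30 in N2 and 1.24, 1.27 and −0.29 in Ca. ECO1, the cohesin acetyltransferase, was at 0.58, 1.30 and 1.37 in N2 and 1.27, 1.40 and 0.18 in Ca. These 3 exceeded the median member in N2 replicates 2 and 3, and in N2 replicate 1 CDC14 lay below it. SMC1 of cohesin and SMC2 of condensin together had medians of 0.51, 1.13 and 1.08 in N2, against 0.13, 0.28 and 0.28 for 7 partner subunits on chromosomes other than VI and XIII. In Ca this pair was at 1.10, 0.92 and 0.28, against 0.24, 0.17 and 0.24. In Ca replicate 3 the VI genes and their partners lay close together.

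In the proteasome, a protease complex whose subunits are made in fixed proportion, VI genes stood apart from the rest. Chromosome VI carries RPN11 (the deubiquitylase of the lid), RPN12 (another lid subunit) and PRE4 (a beta subunit of the core particle). RPN11 had 4450.4, 5962 and 5760.3 normalised counts in N2 and 6100.2, 6083 and 2439.7 in Ca, against 3555, 3853 and 3534 in ScNI. PRE4 had 5598, 7528 and 7341 in N2 and 7101, 7584 and 3429.9 in Ca, against 4101, 4363 and 4192 in ScNI. RPN12 had 2939.7, 3860.1 and 3925 in N2 and 3567, 3727 and 2225 in Ca, against 2519.6, 2724 and 2537 in ScNI. All 3 were above ScNI in every N2 library and in Ca replicates 1 and 2, and below ScNI in Ca replicate 3.

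Most subunits encoded elsewhere lay below the wild type. Across the 27 measured proteasome subunits on chromosomes other than VI and XIII, the median was −0.24, −0.22 and −0.23 in N2. In Ca it was −0.33, −0.21 and −0.34, and the highest of the 27 reached 0.22, in Ca replicate 1. Chromosome XI was not left out of this set, and its genes were raised in Ca replicate 1, with a median of 0.53. In Ca replicates 2 and 3 the XI genes were at −0.08 and −0.01. Whether XI raised the highest value of the set was not tested. The 3 VI subunits had medians of 0.29, 0.71 and 0.66 in N2 and 0.74, 0.74 and −0.30 in Ca. The 2 subunits on chromosome XIII, which was also raised in these strains, had 0.29, 0.75 and 0.74 in N2 and 0.72, 0.78 and −0.27 in Ca. Subunits of VI and XIII thus stood at about the same height in each N2 and Ca library, well above the rest of the complex in N2 replicates 2 and 3 and Ca replicates 1 and 2. In N2/Ca the VI subunits were at 0.21, −0.13 and −0.16, those of XIII at 0.04, −0.32 and −0.39 and the others at −0.29, −0.20 and −0.25.

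**Figure D3:**
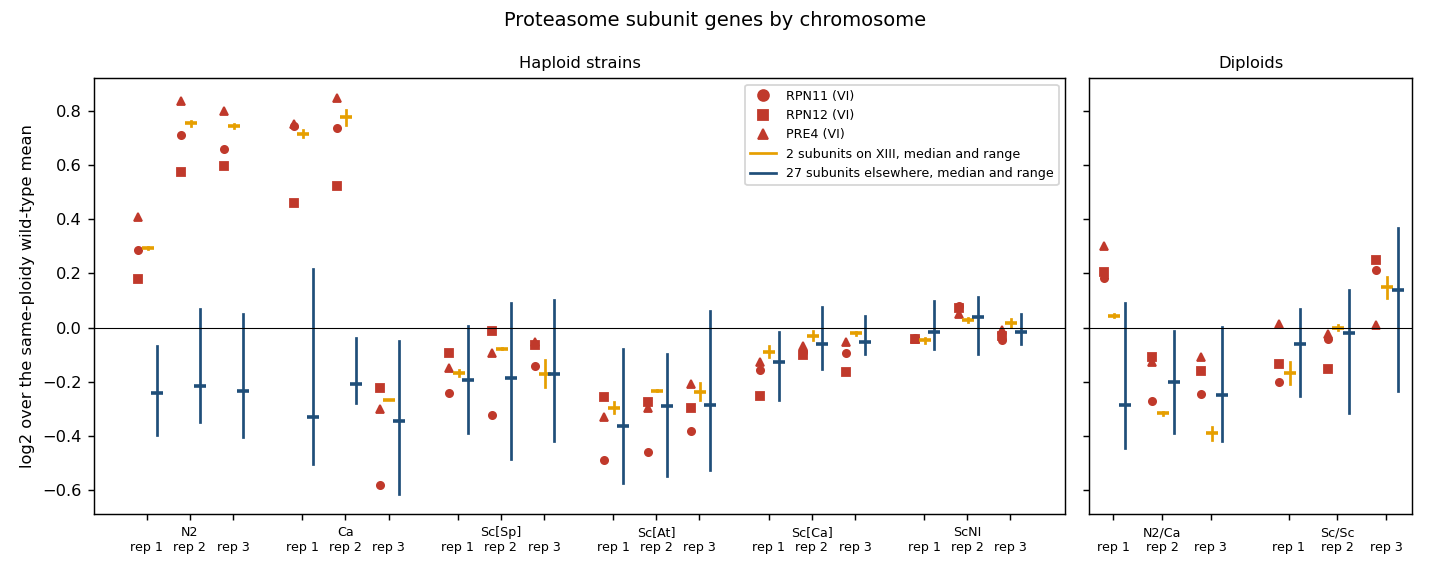
Log2 values over the same-ploidy wild-type mean for RPN11, RPN12 and PRE4 (red), for 2 subunits on chromosome XIII (yellow, median and range) and for 27 subunits on other chromosomes (blue, median and range) in each library. Red points lie above the whole blue range in all N2 libraries and in Ca replicates 1 and 2, and within or near it in Ca replicate 3 and the Sc strains.

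The upstream regions of RPN11 and PRE4 are shown because both hold the core of the element bound by Rpn4, the transcription factor of proteasome genes, and because both genes were raised with the chromosome while most of their partners lay below the wild type. The sequences (R64, RefSeq) run between 300 and 101 bases before the annotated start, 5′ to 3′ on the strand of the gene, with the motif in capitals; it was searched on both strands as GTGGCAA, which reads TTGCCAC on the other strand. The RPN11 window is chrVI:153093-153292, plus strand, and 32 of its bases lie in an annotated gene. The PRE4 window is chrVI:249967-250166, minus strand, with 4 such bases.
RPN11: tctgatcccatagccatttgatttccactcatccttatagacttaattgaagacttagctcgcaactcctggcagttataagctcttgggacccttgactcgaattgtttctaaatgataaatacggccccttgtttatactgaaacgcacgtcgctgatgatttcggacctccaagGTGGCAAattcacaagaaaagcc
PRE4: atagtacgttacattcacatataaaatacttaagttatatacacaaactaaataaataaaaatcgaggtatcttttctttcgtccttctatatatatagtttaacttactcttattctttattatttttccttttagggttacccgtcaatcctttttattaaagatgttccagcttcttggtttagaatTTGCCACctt

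The motif was in this window for 8 of 118 members (6.78%) and for 201 of 6001 genes in the genome (3.35%). The other members that hold it were SNO3, SNZ3, AGP3, EPL1, BUD27 and YPI1. It was not in the same window of RPN12 or of UBP6, the deubiquitylase that docks on the proteasome. RPN12 was raised with the chromosome as well, and a link between motif and level was not tested. Other motifs were searched too and are not in capitals. Of these, the RPN11 window holds TGACTC (Gcn4), CCCCT (STRE) and CTCATC (PAC core), found in 5.85%, 16.3% and 13.8% of all genes.

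Replicate 2 stood apart in a mating gene of the chromosome. STE2 encodes the receptor for alpha factor, and is known to be silent in MATalpha cells. It had 10438, 278 and 17875 normalised counts in N2 and 14451, 269.9 and 6021 in Ca, against 7420.3, 114 and 7632 in ScNI, so that replicate 2 was low in each of these strains, and it was low in replicate 2 of the other haploid strains as well. The labels give no mating type. STE2 stood highest in N2 replicate 3 and Ca replicate 1. GYP8, which lies near STE2, had 976, 844 and 1367 in N2, against 803, 507 and 820.5 in ScNI, and was likewise lowest in replicate 2 of N2 and ScNI.

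By position, the members were raised on both arms in N2 and in Ca replicates 1 and 2. The left arm had medians of 0.55, 0.98 and 0.94 in N2 and 0.97, 0.93 and 0.16 in Ca, and the right arm 0.44, 0.82 and 0.80 in N2 and 0.80, 0.80 and −0.06 in Ca. The left arm was thus the higher of the arms in each of these libraries. It was also the higher in Sc[Sp], at 0.12, 0.13 and 0.04 against −0.01, −0.01 and −0.05. In Sc[At] it was at 0.22, 0.19 and 0.16, against −0.00, 0.05 and −0.12. In Sc[Ca] replicates 2 and 3 the right arm was the higher. In runs of 10 members in map order, the run at the left end, between YFL067W and AQY3, was the highest in all 6 libraries, at 0.75, 1.29 and 1.09 in N2 and 1.44, 1.20 and 0.83 in Ca. The lowest in N2 was the run between UBP6 and YFR018C on the right arm, at 0.37, 0.63 and 0.58. The lowest in Ca was the run next to it, between DEG1 and GCN20, at 0.53, 0.62 and −0.28. In every N2 library all 12 runs, the last of 9 members, were above 0.

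**Figure D4:**
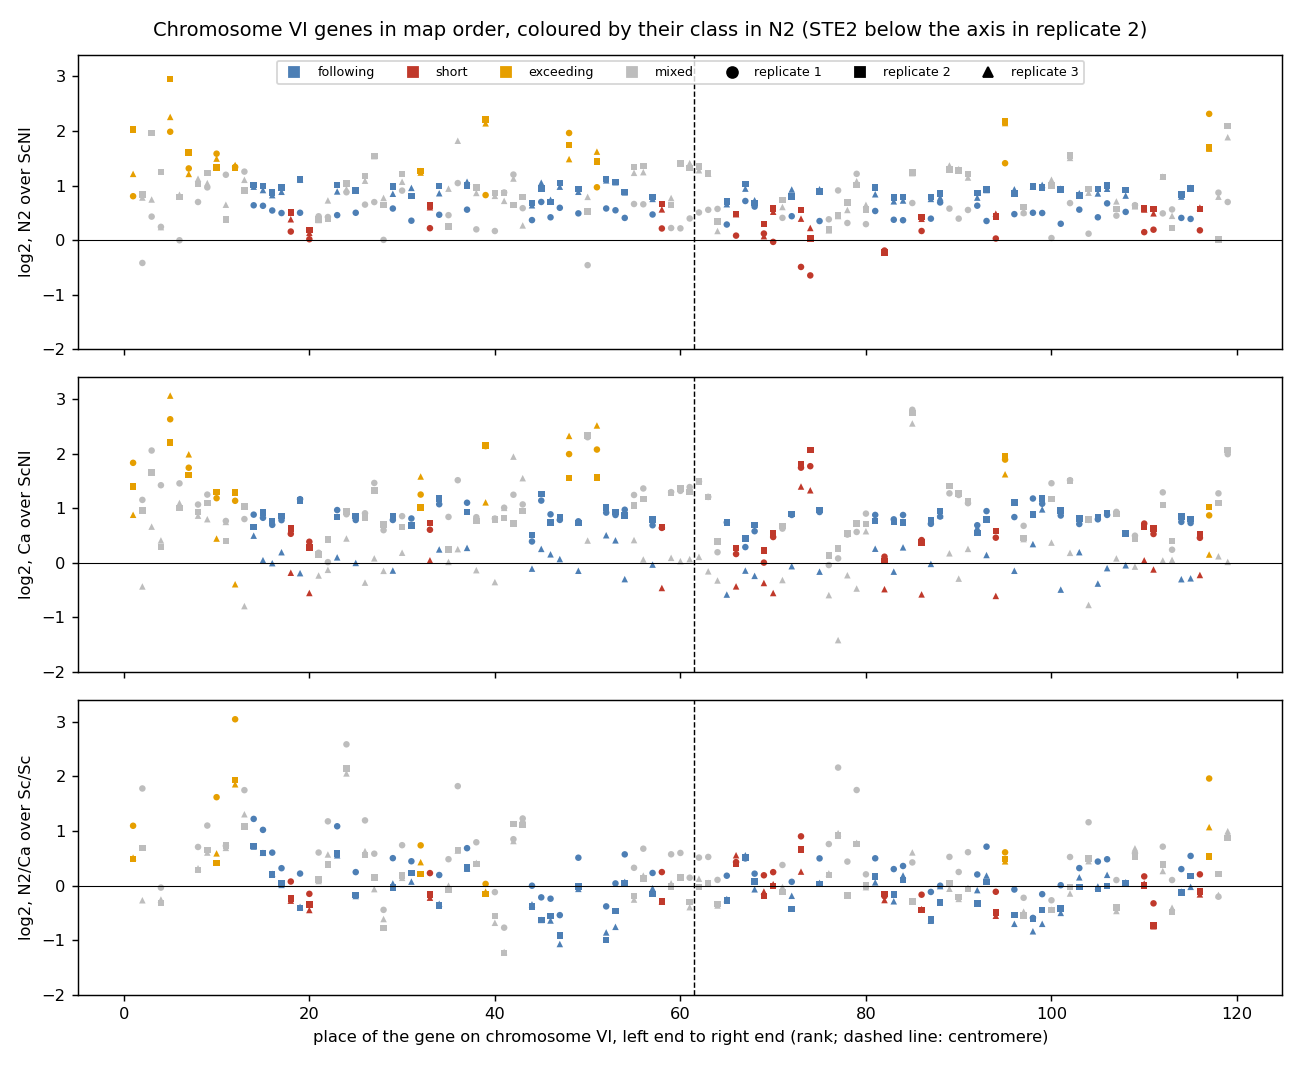
Log2 values of the chromosome VI genes in map order in N2 and Ca over ScNI (top and middle) and N2/Ca over Sc/Sc (bottom), with marker shapes for replicates and colours for the class in N2; the dashed line is the centromere. The values are raised from end to end in N2 and in Ca replicates 1 and 2, with most exceeding members (yellow) on the left arm.

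The left end was also high where the chromosome was not. The run between YFL067W and AQY3 was at 0.83, 0.86 and 0.39 in Sc[At] and 0.40, 0.50 and 0.15 in Sc[Sp]. The 24 members within 30 kb of either end had medians of 0.55, 0.30 and 0.22 in Sc[At], and the other 95 had 0.04, 0.06 and −0.02. Genes within 30 kb of the ends of 13 other chromosomes were at 0.33, 0.31 and 0.16 in Sc[At]. Genes near chromosome ends were thus higher than the rest in Sc[At] on VI and on the other chromosomes alike.

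In the diploid N2/Ca other stretches stood apart. The run between GAT1 and YFL012W was at −0.11, −0.47 and −0.49 and the run between PTR3 and CDC26 at −0.09, −0.45 and −0.46, below the median member of every N2/Ca library. GAT1, a transcription factor of nitrogen use, was at −0.77, −1.23 and −1.22 in N2/Ca but at 0.87, 0.86 and 0.72 in N2. MDJ1, a mitochondrial chaperone of the DnaJ kind, was at −0.54, −0.91 and −1.07 in N2/Ca but at 0.59, 1.05 and 0.98 in N2. These genes were low in all 3 N2/Ca libraries, with the least negative value in replicate 1.

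The neighbours of ACT1 and TUB2 did not all stand at the height of the chromosome. In map order they are FET5, YFL040W, ACT1, YPT1, TUB2, RPO41 and MOB2. FET5, a multicopper oxidase, was at 0.46, 1.01 and 0.89 in N2 and 1.09, 0.59 and 0.56 in N2/Ca. YFL040W was at 0.88, 1.04 and 0.94 in N2 and 0.89, 0.95 and 0.45 in Ca, and in the diploid N2/Ca it was at 2.59, 2.15 and 2.06. RPO41, the mitochondrial RNA polymerase, was at 0.65, 1.17 and 1.09 in N2 and 1.19, 0.56 and 0.63 in N2/Ca. Of these, YFL040W stood far above the median member in all 3 N2/Ca libraries, while YPT1, between ACT1 and TUB2, was at 0.25, −0.17 and −0.19 there.

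In the strains without a raised chromosome VI, single members changed in both directions. Each was tested with limma on log2(value + 1) over 5808 genes in 12 libraries, those of Sc[Sp], Sc[At], Sc[Ca] and their wild type, at a Benjamini-Hochberg adjusted p under 0.05. In Sc[Sp] 41 of 119 members passed, which is 34.5%, beside 41.5% of all genes tested. Of these, 26 rose (21.8%, beside 19.7% of all genes) and 15 fell (12.6%, beside 21.8%). In Sc[At] also 41 passed (34.5%, beside 31.2%), of which 26 rose (beside 16.4%) and 15 fell (beside 14.9%). In Sc[Ca] 0 members passed, 0 higher and 0 lower, beside 0.0689% of all genes, 0.0172% higher and 0.0517% lower. There 10 members had an unadjusted p under 0.05 in limma, and the share of all genes at that p was not computed. Members called by edgeR and DESeq2 in Sc[Ca] also numbered 0, beside 3 and 64 of 5808 genes. These counts depended on which libraries set the spread. In all 18 haploid libraries, which adds N2 and Ca, 19 members rose in Sc[Sp] and 18 in Sc[At], and 0 fell in either strain. Over all 5808 genes that fit called 584 higher and 633 lower in Sc[Sp], and 490 higher and 396 lower in Sc[At]. In the 6 libraries of Sc[Ca] and ScNI alone, 13 members passed in Sc[Ca] (10.9%), beside 16.6% of all genes. The median fitted change over the members was 0.06 in Sc[Sp], where it was −0.02 over all genes, and 0.06 in Sc[At], where it was −0.00.

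In Sc[Sp] 6 of 10 genes of carbon use rose, beside 19.7% of all genes, and 0 fell; no set test was made. HXK1 had 44429.9, 43847 and 37850.2 normalised counts in Sc[Sp], against 14887, 15447 and 12329 in ScNI, with no overlap (log2 1.57, SE 0.33, limma adjusted p = 0.0036). AGX1 was at 0.89, 1.03 and 0.86 over ScNI in the 3 Sc[Sp] libraries (log2 0.93, SE 0.13, limma adjusted p = 0.0004). GSY1, a glycogen synthase, IGD1, an inhibitor of glycogen breakdown, KGD4 of alpha-ketoglutarate dehydrogenase and QCR6 of the respiratory bc1 complex also rose, GSY1 and IGD1 not in the fit of all 18 haploid libraries. QCR6 was at 0.55, 0.57 and 0.54, beside a median of 0.56, 0.65 and 0.59 for 8 bc1 partners on other chromosomes.

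Other large rises in Sc[Sp] lay together near the left end. AQY3, a channel protein of the aquaglyceroporin family, had 2393, 2458 and 2007 normalised counts in Sc[Sp], against 809.5, 659.5 and 663 in ScNI (log2 1.69, SE 0.20, limma adjusted p = 0.00014). AGP3, an amino acid permease, had 556, 594 and 519.6 in Sc[Sp], against 219.8, 174 and 189 in ScNI (log2 1.52, SE 0.12, limma adjusted p = 1.7e-05). DAK2, a dihydroxyacetone kinase, had 305, 288 and 233 in Sc[Sp], against 123, 95.4 and 85.2 in ScNI (log2 1.44, SE 0.22, limma adjusted p = 0.00055). These neighbours, with ZNF1 and YFL051C and the smaller rises of ALR2 (log2 0.24, SE 0.07, limma adjusted p = 0.02) and SWP82 (log2 0.28, SE 0.06, limma adjusted p = 0.0044), form an unbroken row of members that rose in Sc[Sp], each with every Sc[Sp] library above every ScNI library; ALR2 and SWP82 did not pass with all 18 haploid libraries. Among the 24 members within 30 kb of an end, 10 rose and 0 fell, beside 19.7% and 21.8% of all genes. Genes within 30 kb of the ends of 13 other chromosomes were also higher in Sc[Sp], at 0.18, 0.28 and 0.21, against −0.04, −0.03 and −0.02 for the rest of those chromosomes.

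Of 8 ribosome and translation genes 6 fell in Sc[Sp], beside 21.8% of all genes, and 0 rose; all 6 calls are lost in the fit of all 18 haploid libraries. SPB4, a helicase of large-subunit assembly, had 667, 592 and 725 normalised counts in Sc[Sp], against 1151, 1133 and 1220.0 in ScNI (log2 −0.82, SE 0.11, limma adjusted p = 0.00022). LOC1, of ribosome assembly and ASH1 mRNA localisation, was at −0.52, −0.79 and −0.40 over ScNI (log2 −0.57, SE 0.14, limma adjusted p = 0.0082). DEG1, a pseudouridine synthase that lies between them at the centromere, was at −0.61, −0.67 and −0.85 (log2 −0.71, SE 0.10, limma adjusted p = 0.00033). These 3 neighbours were below every ScNI library in every Sc[Sp] library. BUD27 had 340.4, 284 and 338 in Sc[Sp], against 523, 482 and 573 in ScNI (log2 −0.71, SE 0.14, limma adjusted p = 0.0023), the opposite of its values in N2 and Ca. RPL22B, FRS2 (phenylalanyl-tRNA synthetase) and GCN20 also fell, while RPL2A, at −0.16, −0.10 and −0.06, and RPL29, at 0.01, −0.01 and 0.06, did not pass.

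In Sc[At] 4 of 4 listed proteasome genes fell, beside 14.9% of all genes, and all 4 calls are lost in the fit of all 18 haploid libraries. No set test was made. RPN11 had 2599.5, 2655 and 2800.1 normalised counts in Sc[At], against 3555, 3853 and 3534 in ScNI (log2 −0.44, SE 0.06, limma adjusted p = 0.00046). PRE4 had 3357, 3430.4 and 3652 in Sc[At], against 4101, 4363 and 4192 in ScNI (log2 −0.28, SE 0.06, limma adjusted p = 0.0036). RPN12 was at −0.26, −0.27 and −0.30 over ScNI (log2 −0.28, SE 0.06, limma adjusted p = 0.0045) and UBP6 at −0.27, −0.20 and −0.32 (log2 −0.26, SE 0.06, limma adjusted p = 0.0096). Every Sc[At] library was below every ScNI library for all 4, and the 27 partners on other chromosomes had medians of −0.36, −0.29 and −0.28, about the same as the 3 VI subunits. In Sc[Sp] only RPN11 of the 4 passed (log2 −0.23, SE 0.06, limma adjusted p = 0.012); the difference between the strains was not tested.

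Of the 8 ribosome and translation genes, RPL22B, RPL2A and GCN20 fell in Sc[At], beside 14.9% of all genes, and BUD27 rose, beside 16.4%; the 3 falls are likewise lost with all 18 libraries. BUD27 had 771, 590.2 and 926 normalised counts in Sc[At], against 523, 482 and 573 in ScNI (log2 0.51, SE 0.14, limma adjusted p = 0.016). RPL22B had 1487, 1672 and 1397 in Sc[At], against 2133, 2155 and 2087 in ScNI (log2 −0.49, SE 0.09, limma adjusted p = 0.0018); it too has a paralogue. BUD27 thus passed in opposite directions in Sc[Sp] and Sc[At], though that difference itself was not tested.

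The 3 members with the largest rises in Sc[At] were low genes. HXT10 had 64.1, 106 and 61.7 normalised counts in Sc[At], against 25.4, 22.2 and 19.3 in ScNI (log2 1.71, SE 0.26, limma adjusted p = 0.00067). PES4, a relative of the poly(A)-binding protein, had 75.9, 84.6 and 74.7 in Sc[At], against 26.2, 21.4 and 22.3 in ScNI (log2 1.71, SE 0.15, limma adjusted p = 1.3e-05). PAU5, of the seripauperin family, had 62.1, 70.9 and 47.4 in Sc[At], against 23, 20.6 and 14.2 in ScNI (log2 1.60, SE 0.25, limma adjusted p = 0.0008). None of these 3 overlapped between Sc[At] and ScNI. PES4 was higher still in Ca, with 169, 162 and 142, and PAU5 has near-identical family members, so its counts are uncertain. HXK1 did not pass in Sc[At], where its libraries ran from 10874 to 39975 (log2 0.65, SE 0.33, limma adjusted p = 0.16).

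**Figure D5:**
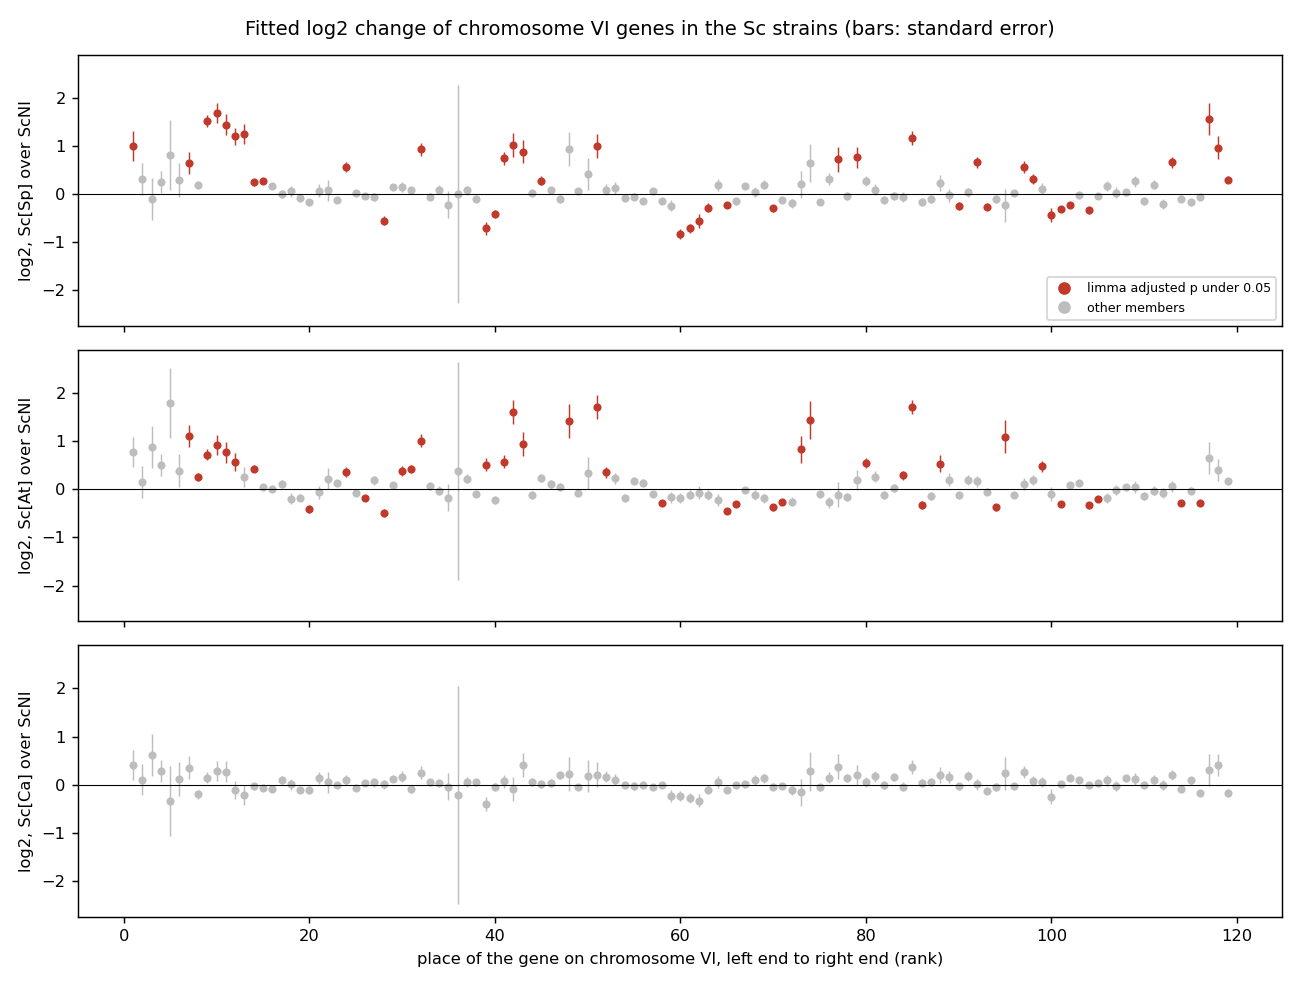
Fitted log2 change over ScNI of each member in map order in Sc[Sp], Sc[At] and Sc[Ca], with bars for the standard error; red members passed limma at an adjusted p under 0.05. Red members are scattered along the chromosome on both sides of 0 in Sc[Sp] and Sc[At], none passed in Sc[Ca], and the wide bar is STE2.

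The classes in N2 and the tests in these strains share the ScNI libraries, so their values are given side by side only. Over all genes, 19.7% rose and 21.8% fell in Sc[Sp], and 16.4% rose and 14.9% fell in Sc[At]. Of the 11 exceeding members 7 rose in Sc[Sp] and 8 in Sc[At], with BUD27 the single one that fell in Sc[Sp]. Of the 15 short members 7 fell in Sc[At] (OTU1, LSB3, SAD1, GCN20, RPL2A, RPN12 and VTC2) and 2 rose (DCV1 and YFR012W-A). In Sc[Sp] only GCN20 of the short members passed. Of the 42 following members 8 passed in Sc[Sp], beside 41.5% of all genes, and 10 in Sc[At], beside 31.2%.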

How the data were processed

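RNA was measured in 24 libraries, 3 for each of 8 strains, by single reads of 50 bases from a stranded poly(A) library kit, per the labels' protocols. Per the submitters' processing notes alignment was named as HISAT2 2.2.1 on build R64 and normalisation as DESeq2 1.28.0, after trimming by Trimmomatic 0.39. No source used here names the program that counted the reads or its strand option. The authors deposited normalised signal values, which are read counts divided by size factors, in 2 tables scaled separately. All values (100%) came out as a whole read number within 0.001, and totals of those reads give the depth. Columns named N19_Ca in the diploid table were taken as N2/Ca.

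The genes, the gene lists and the tests were chosen with earlier results of these data known. Log2 values used a pseudocount of 1. The tests used limma 3.58.1 with a trended prior on 5808 genes with a mean of at least 10, without the 5 rows of introduced actins, in 12 libraries, with Benjamini-Hochberg adjustment. N2 and Ca were left out of that fit because their libraries differ in chromosome VI. Alternatives used edgeR 4.0.16 and DESeq2 1.42.0 on the recovered reads, other pseudocounts, filters, scalings and sets of libraries, and each replicate left out. Deviations from the strain mean were correlated with those of ScNI over 5808 genes. With the same-numbered ScNI library the correlation was 0.62, 0.84 and 0.50 for Sc[Ca], 0.54, 0.68 and 0.39 for Sc[Sp], and 0.45, 0.64 and 0.40 for Sc[At]. Replicates 1 and 3 also correlated across numbers, Sc[Sp] replicate 1 with ScNI replicate 3 at 0.54 and Sc[Ca] replicate 1 with ScNI replicate 3 at 0.56, while replicate 2 stood apart from both. A library that stands apart makes the deviations of the rest alike. The values thus set replicate 2 apart but cannot show that replicates 1 and 3 pair by number. The replicate number was used as a block in an alternative fit only. Named genes were the 8 lowest and 8 highest members by mean deviation in N2 among those of a class, the 5 largest rises and 5 largest falls per strain tested, the neighbours of ACT1 and TUB2, the members at the margin, and the proteasome, ribosome, cell cycle and mating lists; others, such as SEC4, SEC53, RSC8, HAC1 and MDJ1, were chosen after their values were seen. The function of the limma fit was tested on simulated data before use.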

Additional observations from a re-analysis of the deposited data

How the results depend on the processing

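Of 132 recomputed main values and counts, 122 stayed within the limits set and 10 moved. The mean of the library medians of Sc[Sp] changed sign, to −0.0059 with members of a mean of at least 100, against 0.04 with all members; single library medians nearest to 0, in N2/Ca replicates 2 and 3, Sc[At] replicate 3 and Sc[Sp] replicate 3, also changed sign under some settings. Exceeding members numbered 20 at a margin of 0.15, 4 at a margin of 0.5 and 5 with a mean of at least 100. At the margin of 0.5, 80 members were following and 2 short. With all 18 haploid libraries fitted, calls numbered 19 for Sc[Sp] and 18 for Sc[At], beside 1217 and 886 of all 5808 genes. There were 13 for Sc[Ca] in the 6 libraries of the 2 strains, beside 962 of 5808. The cause of these changes was not tested. Leaving out a replicate gave between 28 and 37 calls in Sc[Sp], 29 and 54 in Sc[At], and 0 and 0 in Sc[Ca]. Over all 5808 genes these fits called between 1693 and 2177 in Sc[Sp], 1185 and 2564 in Sc[At], and 1 and 2 in Sc[Ca]. Leaving out a replicate also gave between 40 and 52 following, 12 and 22 short, and 11 and 24 exceeding members. Mean medians without a wild-type replicate ran between 0.76 and 0.78 in N2, 0.59 and 0.60 in Ca, 0.11 and 0.14 in N2/Ca, 0.05 and 0.08 in Sc[At], 0.03 and 0.05 in Sc[Ca], and 0.03 and 0.05 in Sc[Sp]. With the replicate block, 42 members passed in Sc[Sp], 41 in Sc[At] and 0 in Sc[Ca], beside 2524, 1949 and 5 of all 5808 genes. The block thus moved no member count beyond the limit. Of 20 named results of these strains, 10 did not pass with all 18 haploid libraries, among them SPB4, DEG1, LOC1 and BUD27 in Sc[Sp] and RPN11 and RPL2A in Sc[At]. YFR012W-A in Sc[At] did not pass without ScNI replicate 1, ScNI replicate 3 or Sc[At] replicate 2. No tested result of a named gene changed direction. Depth limits the low members most: 18 have a mean under 100.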
